A study of Ovis aries with 2 samples.

Results

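Endothelial cells of the sheep anterior pituitary were picked from 2 single-cell libraries by the genes they carried, and 2470 of 29621 barcodes passed. A barcode first needed at least 500 genes and 1000 UMIs (unique molecular identifiers, each a counted transcript molecule). It then needed at least 3 of 8 endothelial genes, namely PLVAP, PECAM1, CDH5, KDR, ESAM, RAMP2, TEK and CD34. PRL had to make up under 25% of its UMIs, GH under 10%, LHB under 0.3% and the complement genes C1QA, C1QB and C1QC together under 0.1%, and DCN, a fibroblast gene, had to be at 0. These limits keep out lactotrophs, somatotrophs, gonadotrophs, macrophages and fibroblasts. The levels of those genes chose the cells, so they are given below as a description and support nothing.

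The animals were Hu sheep of 3 and 6 months, ages the study set around puberty, with 1 library of dissociated anterior pituitary per age. The labels record no treatment. Both ages share the strain and the dissociation, and the sources used here do not give how many animals, or of which sex, went into a library. The 2 ages therefore had no replicate check and were not tested, and age, library and preparation cannot be told apart.

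Anterior pituitary capillaries are fenestrated. Their thin walls carry pores bridged by diaphragms built from PLVAP, through which hormones enter the blood and hypothalamic factors reach the gland by the portal veins. This sets them apart from the sealed capillaries of most of the brain. Along any vascular bed, endothelial cells also differ by position: arteries use Notch signalling through DLL4 and EFNB2, veins depend on NR2F2 and recruit leukocytes through SELP and ACKR1, and sprouting tip cells make ANGPT2 and ESM1. Most of these roles were worked out in mouse and human vessels.

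The gate took 2019 of 16368 barcodes at 3 months, a share of 12.3% (95% exact Clopper-Pearson interval 11.8 to 12.8). It took 451 of 13253 at 6 months, a share of 3.40% (3.10 to 3.73). The share was thus lower in the 6-month library. Intervals here and below cover counting error only, and how well each cell type survived dissociation was not measured. The libraries held 142479651 and 175239612 UMIs over 18961 and 15031 barcodes, and 81 barcode sequences occurred in both. Gated cells had a median of 2885 UMIs and 1442 genes at 3 months and 3397 UMIs and 1585 genes at 6 months, against medians of 5769 and 10089 UMIs in the other barcodes. PRL, which endothelial cells should lack, made up 1.5% and 2.06% of gated UMIs against 21.9% and 34.9% over all kept barcodes. The gate limits its share, so this gap is set in part by the rule. Per cell, the median PRL share at 3 months was 0.811% in gated cells and 0.752% in the other barcodes. At 6 months these medians were 1.23% and 7.66%. A UMI of PRL was found in 100% of gated cells of both libraries. Free RNA estimated from the hormone genes amounted to 6.85% and 5.91% of gated UMIs. The hormone genes did not share 1 ratio: at 3 months POMC made up 0.0530% of gated UMIs against 0.0463% over all kept barcodes.

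Some gated cells carried genes of another class. Each library's gated cells were clustered apart, without hormone, ribosomal and gate genes, into 7 groups at 3 months and 6 at 6 months, and 5 of these 13 groups had at least 3 markers of a non-endothelial class. At 3 months these were subcluster 3 (231 cells, 6 markers of stem or folliculostellate cells, the supporting cells of the gland), subcluster 5 (56 cells, 9 endocrine markers) and subcluster 6 (17 cells, 3 T or NK markers). At 6 months they were subcluster 0 (33 cells, 7 T or NK and 6 endocrine markers) and subcluster 5 (19 cells, 7 stem or folliculostellate, 6 endocrine and 3 macrophage markers). Their PLVAP levels lay between 1203 and 2321 counts per 1000000 UMIs (CPM), against 5466 to 7310.2 CPM in the other 8 groups. A PLVAP level below 0.5 times that of the library's other gated cells was also part of how mixed groups were defined, so this gap is a description. The marker condition alone gave the same 5 groups. The doublet caller Scrublet marked 55.4%, 46.4%, 0%, 42.4% and 31.6% of their cells in the order given, and at most 0.763% of the cells of any other group. Subcluster 6 of 3 months passed the marker rule on CD3E, CD3G and NKG7, each in 11.8% of its cells. Cell cycle genes were found in more of its cells, TOP2A in 52.9% and UBE2C in 47.1%, and PLVAP was found in 88.2%. Whether it held cycling endothelial cells or a mixture was not tested. Together the 5 mixed subclusters held 304 cells (15.1% of the gate) at 3 months and 52 (11.5%) at 6 months. Without them 1715 cells (10.5%, 10.01 to 10.96) and 399 cells (3.01%, 2.73 to 3.32) were left. Each age result below is given with and without them where it moved.

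The 6 fixed endothelial markers PLVAP, PECAM1, CDH5, KDR, ESAM and TEK are all gate genes, so their levels describe the choice of cells and are no check of the label. They were detected in 74.1% to 99.1% of gated cells at 3 months and 76.1% to 99.8% at 6 months. Their summed level was 9549 and 8859 CPM in gated cells against 112 and 43.1 CPM in the other barcodes. Mural markers, which would mark pericytes and smooth muscle, summed to 89.1 and 116 CPM against 120.2 and 45.9 CPM elsewhere, with 2 and 5 of 9 at 0. The pericyte receptor PDGFRB and the smooth muscle myosin MYH11 were at 0 in both libraries, and TAGLN, an actin-binding protein, was found in 10.3% and 16.0% of cells. Fibroblast markers, of which the gate holds DCN at 0, summed to 106.3 and 27.4 CPM against 148 and 51.7 CPM. Macrophage markers, of which the gate limits C1QA, C1QB and C1QC, summed to 63.5 and 139 CPM against 1061 and 1155 CPM elsewhere. The fibroblast and macrophage gaps are thus set in part by the rule. Stem or folliculostellate markers summed to 341 and 204 CPM, and to 35.3 and 18.2 CPM without the mixed subclusters. T or NK markers summed to 4.78 and 72.8 CPM, and to 2.55 and 5.64 CPM without those subclusters. B or plasma markers were at 4.91 and 85.4 CPM, and at 5.10 and 72.7 CPM without them. The part of these other cells' RNA in the age results was not tested.

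Most members carried 7 or 8 of the gate genes. All 8 gate genes were found in 955 cells (47.3%) at 3 months and 195 (43.2%) at 6 months, and 7 of them in 592 and 128 cells. Cells with all 8 had medians of 3507 and 5027 UMIs, against 2885 and 3397 over the gate. The part of depth in these counts was not tested. The cells just inside, with 3 gate genes, numbered 60 and 11 and had PLVAP at 280.3 and 287 CPM. Those just outside, with 2 gate genes, numbered 226 and 89 and had PLVAP at 84.5 and 36.8 CPM. Cells with 4 gate genes numbered 48 and 12, and their PLVAP level was 1218 and 3399.9 CPM. EPCAM, an epithelial adhesion gene, was at 234 and 106.2 CPM just inside and 243 and 99.0 CPM just outside, so cells at 3 genes resembled their outer neighbours in that gene.

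Beyond the gate genes, the cells carried the wider endothelial gene set. All 25 pan-endothelial genes with at least 50 UMIs were 2-fold or more above the other barcodes in both libraries, as were 21% of the 10556 genes compared. The remaining 2 of the 27 were SOX7, with 4 and 1 UMIs, and GIMAP4, at 0. EGFL7, a secreted endothelial factor, was at 756 and 704 CPM against 14.2 and 4.2 CPM elsewhere. EMCN, a sialomucin of capillary and venous surfaces, was at 877 and 566 CPM. SOX18, a transcription factor of endothelial development, was at 286 and 389 CPM, and CLDN5, the tight junction claudin of endothelium, was low at 30.2 and 50.3 CPM. Since cells were chosen by endothelial genes, these values describe the group and test nothing. Ordered by the smaller of the 2 libraries' folds over the other cells, the first gene was NR5A2, a nuclear receptor, at 11.6 and 7.64 CPM against 0.0678 and 0.0233 CPM. NR5A2 was rare, with 90 and 17 UMIs in 4.01% and 3.10% of gated cells, so its rank rests on few counts. SELP followed in that order, 148-fold higher at 3 months and 613-fold at 6 months, although at 6 months alone it was above NR5A2, which was 328-fold higher. FAM167B was at 754 and 579 CPM and MAL, a membrane proteolipid, at 675 and 442 CPM, each above many of the classical markers. The other leading genes were FGF3, a fibroblast growth factor, APLNR, the apelin receptor, CD93, NPR1, the receptor for atrial natriuretic peptide, SOX17, FAM110D, MYCT1, MMP28, EXOC3L2, SHE and KLHL4.

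Among the vessel genes outside the gate, RGCC was found in nearly all cells. To compare libraries of unequal depth, each cell was thinned to 2000 UMIs, which left 1527 gated cells at 3 months and 375 at 6 months and set aside 492 and 76 shallower cells. RGCC, a cell cycle regulator that marks capillary endothelium in mouse and human atlases, was found in 97.7% of thinned cells at 3 months (96.8 to 98.4) and 94.1% at 6 months (91.3 to 96.3). In the other barcodes it was found in 40.2% and 23.3%. Its level was 5237 and 3710.3 CPM, close to that of PLVAP at 4979 and 4884 CPM. In single cells without the mixed subclusters, the median was 59.8 RGCC UMIs per 10000 at 3 months (10th to 90th percentile 23.7 to 105.5) and 44.7 at 6 months (9.24 to 96.8). The 6-month spread thus reached lower. VWA1, a basement membrane protein, was found in 36.2% and 41.3% of thinned cells. GPIHBP1, which carries lipoprotein lipase across capillary walls, was found in 13.1% (11.4 to 14.9) and 14.4% (11 to 18.4), against 0.264% and 0.0169% elsewhere. CA4, a carbonic anhydrase of lung and other capillaries, was at 0 UMIs in all 2019 and all 451 cells, which allows a share of cells with a UMI of up to 0.149% and 0.665%. AQP1, a water channel, was also at 0 in gated cells, and at 0 in the other barcodes as well.

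Venous genes formed the next layer. NR2F2, the transcription factor of venous identity, was found in 41.5% and 35.7% of thinned cells against 4.02% and 2.78% of the other barcodes. VWF, the clotting glycoprotein stored by venous and larger vessels, was found in 29.5% (27.3 to 31.9) and 18.4% (14.6 to 22.7). EPHB4, the venous ephrin receptor, was found in 15.4% and 13.1%, and TLL1, a metalloprotease, in 10.9% and 6.13%. SELP, the adhesion molecule P-selectin, was found in 14.1% (12.4 to 16.0) and 8.53% (5.91 to 11.8), whereas it was near background elsewhere at 0.136% and 0.0169%. ACKR1, a receptor that carries chemokines across venules, was rare at 1.51% (0.957 to 2.25) and 5.07% (3.08 to 7.80). SELE, or E-selectin, which inflamed venules display, had 0 UMIs at 3 months and 7 UMIs in 1 cell (0.222%) at 6 months.

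Arterial genes split into a common and a scarce set. EFNB2, the arterial ephrin ligand, was found in 17.7% and 26.7% of thinned cells, against 8.47% and 5.48% of the other barcodes. DLL4, the Notch ligand, was found in 7.33% and 16.0%, against 0.974% and 0.938%. These genes also serve angiogenic capillaries. The genes that mark larger arteries were scarce. GJA4, a gap junction connexin, was found in 4.06% and 2.93%, and GJA5, its arterial relative, was at 0 in both libraries, with the same limits as CA4. HEY1, a Notch target, was found in 3.34% and 2.40% of gated cells and in 7.98% and 5.97% of the other barcodes, so its signal was below that of the rest of the gland. SEMA3G was found in 2.55% and 1.60%.

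Lymphatic identity was not seen. PROX1, the factor that specifies lymphatic endothelium, was found in 0.327% and 0.267% of thinned gated cells and in 5.05% and 3.26% of the other barcodes. CCL21, a lymphatic chemokine, had 6 UMIs at 3 months and 0 at 6 months, and PDPN had 11 and 5. These levels are at or below those elsewhere in the gland, and their source was not tested. LYVE1, a hyaluronan receptor, was found in 0.786% and 0.8% of gated cells, close to 0.846% and 0.735% of the others. The list's MMRN1 and FLT4 were nevertheless common. MMRN1, a multimerin of endothelium and platelets, was found in 50.4% and 29.1%, and FLT4, a VEGF receptor also known from fenestrated vessels, in 9.10% and 12.3%. Blood-brain barrier genes were mixed. Of 12 measured, 7 were 2-fold or more above the other barcodes in both libraries, as were 21% of the 10556 genes compared. The 7 were SLC16A1, ABCB1, ABCG2, OCLN, CLDN5, TJP1 and APCDD1. SLCO1C1, the thyroid hormone carrier of brain capillaries, was at 0 in gated cells, and MFSD2A, the lipid carrier that seals brain endothelium, was found in 0.196% of thinned cells at 3 months and in none of 375 at 6 months, which allows up to 0.8%. SLC2A1, the glucose carrier, was found in 3.01% and 1.60%, and in 3.97% and 4.11% elsewhere. ABCG2, an efflux pump, was at 72.8 and 74.6 CPM against 15 and 4.46 CPM in the other barcodes.

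**Figure D1:**
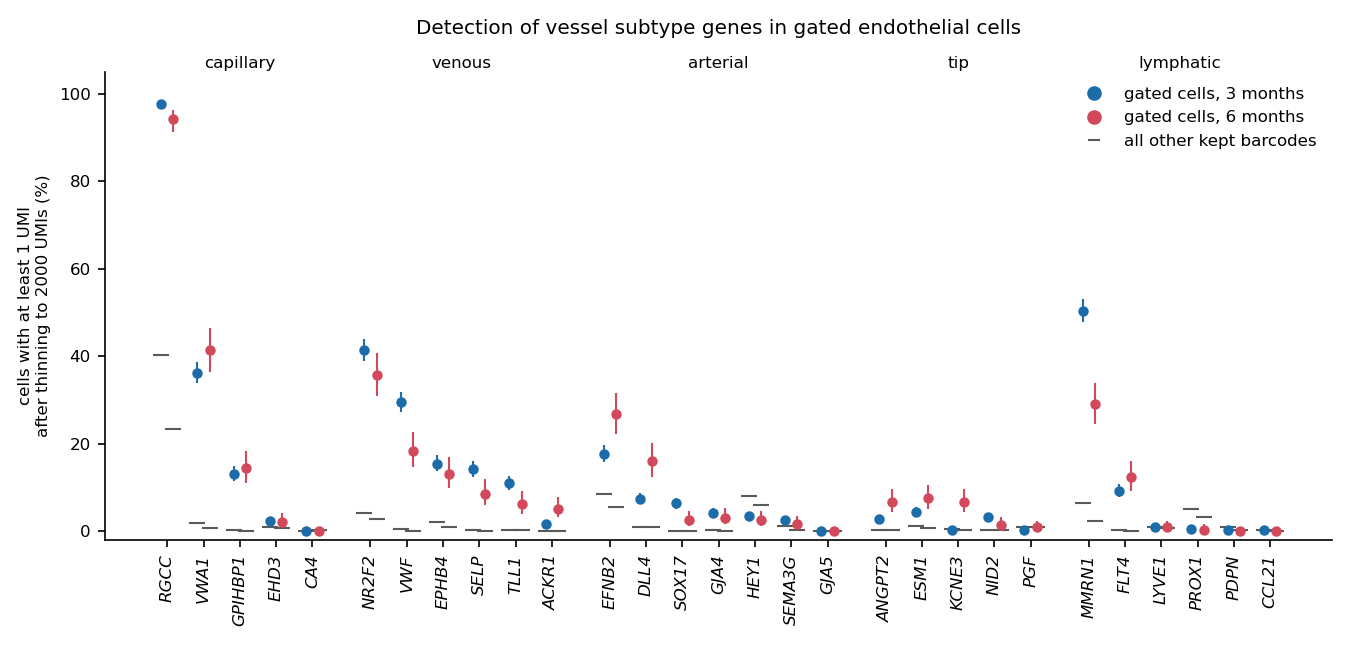
Share of cells (%) with at least 1 UMI of each vessel gene after thinning to 2000 UMIs, with genes grouped by vessel list on the horizontal axis. Dots are gated cells at 3 and 6 months with 95% exact binomial intervals and dashes are all other kept barcodes; RGCC stands at 97.7% and 94.1%, while CA4, GJA5, PDPN and CCL21 lie at or near 0.

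Within each age the 8 unmixed groups formed no set of separate artery, capillary and vein clusters, and they are called by number. RGCC was found in 89.2% to 100% of the cells of each. At 3 months, subcluster 0 (519 cells) was led by interferon-induced genes, with IFIT2, RSAD2, ISG15, IFIT1 and MX2 in front. ISG15, a ubiquitin-like interferon product, was at 1060.04 CPM there against 303 CPM in the library's other gated cells. Subcluster 2 (454 cells) shared the high IFI6, an interferon-induced membrane protein, at 6300 CPM, whereas IFI6 was at 954 CPM in subcluster 1 and 604 CPM in subcluster 4. Subcluster 1 (523 cells) was led by POSTN, a matrix protein, at 380 CPM and in 28.1% of its cells, with OIT3 and COL15A1, a collagen of capillary basement membranes, next. It also held ESM1, a tip cell proteoglycan, at 140 CPM against 3.53 to 21.3 CPM in the other unmixed groups of that library, and COL4A1, the basement membrane collagen, at 1328 CPM. Subcluster 4 (219 cells) was led by S100A4, FABP4 and ADGRG6, and held ABCB1 at 126 CPM and FABP5 at 795 CPM. SELP was at 157 and 168 CPM in subclusters 0 and 4 and at 35.9 and 45.9 CPM in subclusters 1 and 2. Of the venous list, 3 markers each passed the marker rule in subclusters 0 and 4.

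At 6 months subcluster 1 (74 cells) had CXCL10, a chemokine that draws activated T cells, at 7268 CPM and in 86.5% of its cells, against 806 CPM and 17.8% in the library's other gated cells. IL32 was at 2825 CPM, IL18BP, which binds interleukin 18, at 695 CPM, and CD74, the chaperone of MHC class II, at 3984 CPM in 94.6% of cells. The same subcluster passed the marker rule for 4 venous genes, with ACKR1 at 45.1 CPM in 23.0% of cells and SELP at 180.2 CPM in 43.2%, and its RGCC level was the lowest of the unmixed groups at 1956 CPM. Its cells were also deeper, with a median of 6037.5 UMIs against 3397 over the gate, and the part of depth in these shares was not tested. Subcluster 2 (131 cells) was led by MPPED2, RAB6B and SPP1, with CXCL10 at 627 CPM. Subcluster 3 (131 cells) carried the sprouting genes. It passed the marker rule for tip genes (ANGPT2, ESM1 and KCNE3) and also for capillary genes (RGCC, VWA1 and ESM1), with ESM1 in both lists. ANGPT2, which loosens vessels by blocking TEK signalling, was at 145 CPM in 23.7% of its cells, KCNE3, a potassium channel subunit, at 111 CPM in 25.95%, and COL4A1 at 1541 CPM, while CXCL10 was at 8.54 CPM. Its first gene by fold was LOC114108841, for which no name is given, but 1 cell held 94.8% of that gene's 25454 UMIs. Subcluster 4 (63 cells) was led by WNT9B, a Wnt ligand, at 61.0 CPM, with SPON2, CAMK2N1, MAL and VEGFC next, and had FABP5, a fatty acid carrier, at 1489 CPM.

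**Figure D2:**
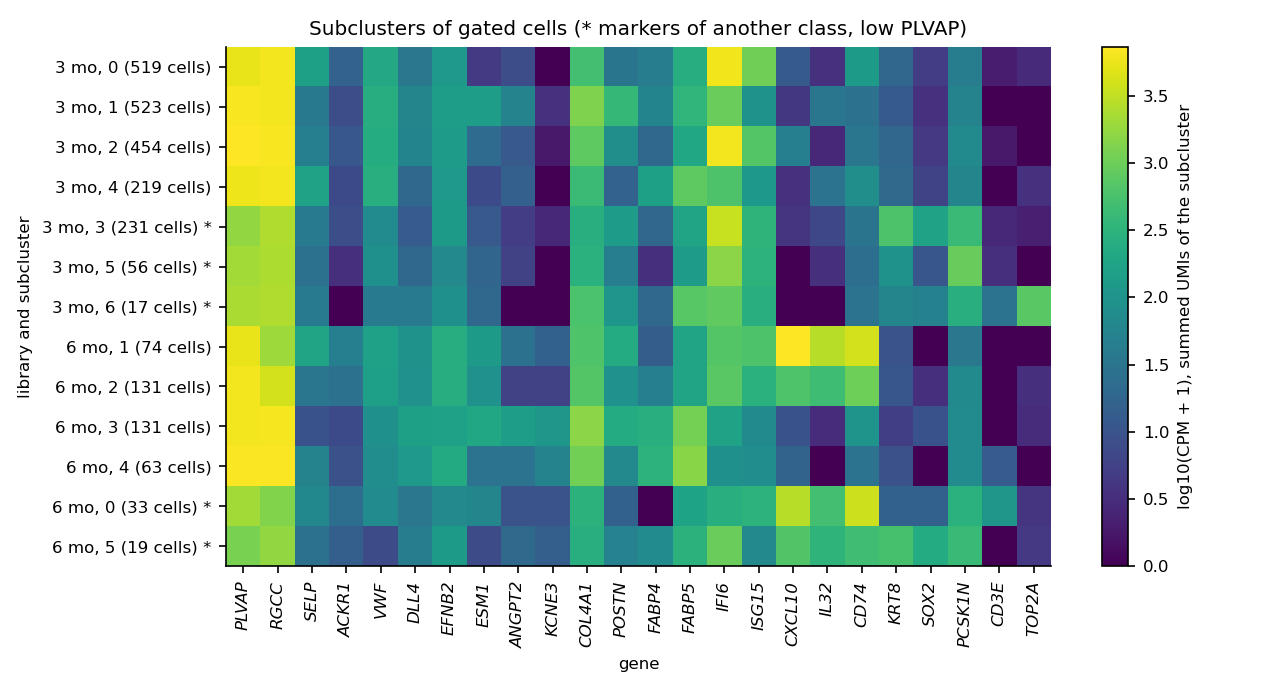
Level of 24 genes in each subcluster of the gated cells as log10(CPM + 1) of its summed UMIs; genes are on the horizontal axis, subclusters of the 3- and 6-month libraries on the vertical axis. Asterisks mark the 5 mixed subclusters, with PLVAP at 1203 to 2321 CPM. At 6 months CXCL10, IL32 and CD74 are brightest in subcluster 1, while mixed subcluster 0 has CD74 at 3756 CPM and CXCL10 at 2838 CPM.

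Pairs of genes in single cells, taken without the mixed subclusters, showed which were found together. At 6 months CD74 was found in 80.0% of the 110 cells with CXCL10 (71.3 to 87.0) and in 22.1% of the cells without it (17.5 to 27.4). KCNE3 was found in 4.55% of cells with CXCL10 (1.49 to 10.3) and in 15.2% without (11.3 to 19.9). Cells with CXCL10 had more UMIs, with a median of 3890 against 2955. KCNE3 alone of the sprouting genes was paired with CXCL10. Other genes of that set were found in chemokine-rich subcluster 1 as well, ESM1 in 14.9% of its cells against 19.8% in subcluster 3, and DLL4 in 37.8% against 37.4%. Within the sprouting set, ANGPT2 was found in 26.5% of cells with KCNE3 and 9.14% without. DLL4 and SELP did not separate. SELP was found in 20.1% of the 194 cells with DLL4 and 19.9% of those without at 3 months, and in 14.3% of both at 6 months. VWF was found more often with DLL4 than without, in 54.6% against 40.6% at 3 months and 46.0% against 26.4% at 6 months. Cells with DLL4 had medians of 3290 and 4207 UMIs against 2618 and 2863 in those without, and the part of depth in these shares was not tested. SELP was found in 10.4% of cells with ESM1 and 20.5% of those without at 3 months, and in 14.3% of both at 6 months.

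The ages were compared on UMIs summed over the gated cells of each library, 7744648 at 3 months and 2225967 at 6 months. Every age ratio is the log2 of the 6-month CPM divided by the 3-month CPM, on library sizes adjusted by TMM (trimmed mean of M-values, a scaling that sets most genes level), with 95% exact conditional binomial intervals, while single CPM levels are on UMI totals. A gene was called 2-fold apart on 3 conditions: at least 100 UMIs, a ratio of at least 2-fold, and, in whichever library was higher, a level of at least 0.5 times that over all kept barcodes. Of 8731 genes, 310 (3.55%) were higher and 246 (2.82%) lower at 6 months, so 55.8% of those apart were higher. On UMI totals without TMM, which moved the median of all genes by -0.11, 255 were higher and 337 lower, or 43.1% higher. Without the mixed subclusters 200 (2.73%) were higher and 204 (2.78%) lower of 7326. Of those, 177 and 125 were also apart over all gated cells. Members of gene lists were counted from 50 UMIs on without the all-cell condition, and over all 10564 such genes 4.36% were higher, 4.62% were lower and the median was -0.04. Without the mixed subclusters these were 3.25% and 4.09% of 9070. Gate genes stayed in these lists: PLVAP among capillary genes, KDR and TEK in VEGF signalling, RAMP2 in vascular tone, and CDH5, ESAM and PECAM1 among junctions. The cells were chosen by them, so their part in the list counts and medians is a description.

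**Figure D3:**
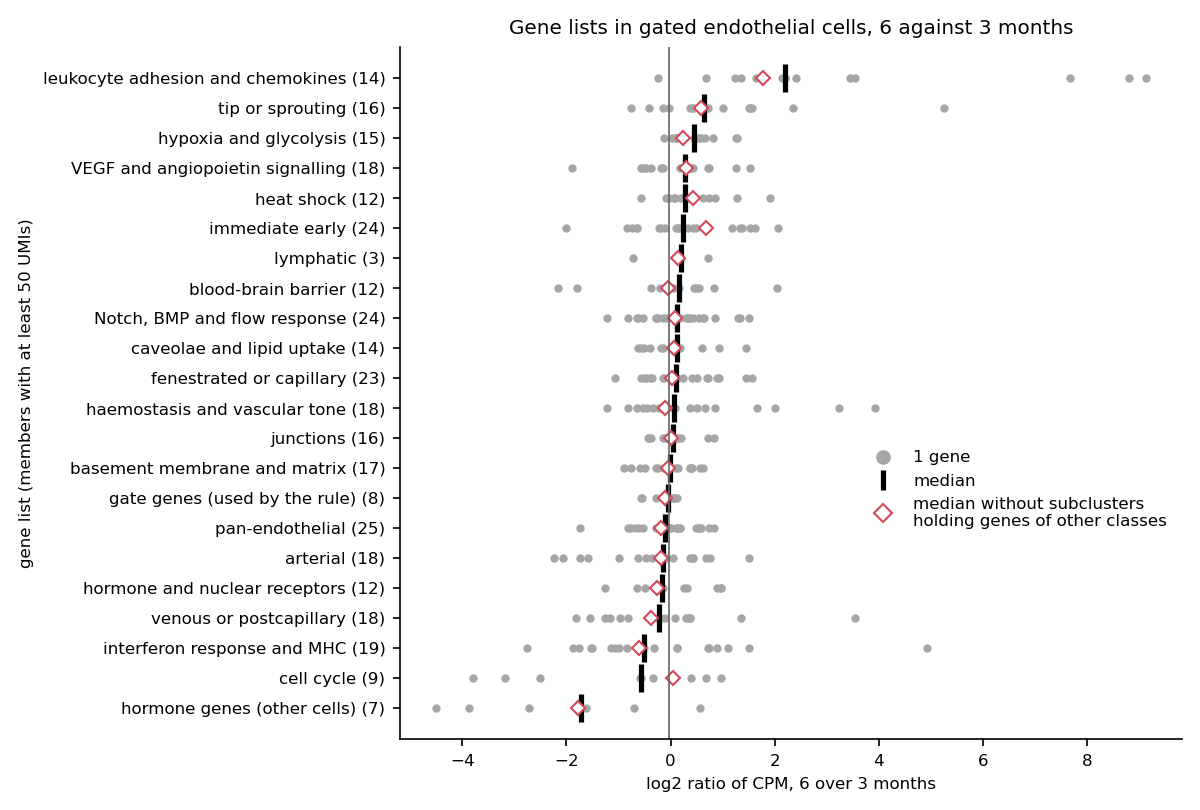
Log2 ratio of 6-month over 3-month CPM (horizontal axis) of the genes of 22 lists with at least 50 UMIs, with the number of such genes in brackets on the vertical axis. Each dot is a gene, black bars are list medians and open diamonds the medians without the mixed subclusters; leukocyte adhesion and chemokine genes lie highest (2.20 and 1.77).

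Sprouting genes differed among themselves. Of 16 measured tip or sprouting genes 6 were at least 2-fold higher and 0 lower, with a list median of 0.64, and the same counts held without the mixed subclusters, with a median of 0.59. One of the 6 was CXCR4, which was at 1.01 (0.70 to 1.31) over all gated cells and 0.12 (-0.90 to 1.04) without the mixed subclusters, where UNC5B stood in its place at 1.09. ESM1 was at 36.5 CPM in the younger library and 100.2 CPM in the older, which is a log2 ratio of 1.56 (1.30 to 1.82). ANGPT2 was at 16.5 and 44.5 CPM (1.53, 1.14 to 1.92). KCNE3 had 8 UMIs in the younger and 81 in the older library (5.24, 4.2 to 6.50), and was found in 0.396% and 12.2% of cells. It was at 1.24 and 0.530 CPM in the other barcodes, so the high level was that of 1 library's gated cells. MCAM, an adhesion molecule of endothelium and pericytes, was at 12 and 56.6 CPM (2.34, 1.94 to 2.75). The basement membrane collagens COL4A1 and COL4A2, at 0.38 and 0.62, were less than 2-fold apart. PDGFB, which recruits pericytes, was at -0.42 and NID2 at -0.75.

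Notch ligands and arterial genes did not move as a block. DLL4 was at 35.3 and 93.4 CPM (1.51, 1.25 to 1.78; 1.47 without the mixed subclusters) and EFNB2 at 125 and 187 CPM (0.69, 0.52 to 0.86). SOX17, a transcription factor of arterial endothelium, went the other way at 30.6 and 8.54 CPM (-1.74, -2.49 to -1.06), and so did SEMA3G at 14.5 and 4.49 CPM (-1.58, -2.68 to -0.65). Among 18 measured arterial genes 1 was 2-fold higher and 4 lower, with a median of -0.15, and 2 were higher and 2 lower of 14 without the mixed subclusters. JAG1, another Notch ligand, was at -0.62, and the receptors NOTCH1 and NOTCH4 were at 0.43 and -0.15. HEY1 was at 0.05 over all gated cells and 1.68 (0.61 to 2.73) without the mixed subclusters.

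The VEGF receptors moved apart by less than 2-fold. KDR, the main signalling receptor and a gate gene, was at 879 and 558 CPM (-0.55, -0.64 to -0.46). FLT1, its decoy relative, was at 266 and 410.2 CPM (0.73, 0.62 to 0.84) and FLT4 at 0.71. TEK, the angiopoietin receptor and also a gate gene, was at -0.58, and PTPRB, the phosphatase that restrains it, at -0.37. NRP1, a VEGF co-receptor, was at -0.47. The ligand VEGFA was at 26.5 and 58.9 CPM (1.26, 0.93 to 1.58), against 47.1 and 49.5 CPM in the other barcodes. Of 18 measured genes of VEGF and angiopoietin signalling 2 were 2-fold higher, ANGPT2 and VEGFA, and 1 lower, ANGPT1, which was at 14.3 and 3.59 CPM and below 46.7 and 41.4 CPM in the other barcodes. ANGPT1, a ligand of TEK, was at -1.89, but 89.2% of its 111 UMIs at 3 months lay in the mixed subclusters, and it was at -0.74 (-3.94 to 1.43) without them. The list median was 0.27, and 0.30 without the mixed subclusters, where 3 genes were higher and 0 lower. PLVAP itself was at 0.08, RAMP2 at -0.14 and PECAM1 at 0.13.

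The gene list with the highest median was that of chemokines and adhesion. Of 14 measured members of that list, 12 were at least 2-fold higher and 0 lower, with a median of 2.20. CXCL9 and CXCL10, which bind the T cell receptor CXCR3, led. CXCL9 was at 4.39 CPM at 3 months and 2297 CPM at 6 months, and at 7.30 and 221 CPM in the other barcodes, which was a log2 ratio of 9.14 (8.65 to 9.67) in gated cells. CXCL10 was at 11.5 and 2159.5 CPM (7.66, 7.36 to 7.98), and at 20.1 and 212 CPM elsewhere. It was found in 0.941% of gated cells at 3 months and 29.0% at 6 months. Most gated cells had none, and the 90th percentile at 6 months was 70.4 UMIs per 10000. ICAM1, an integrin ligand that arrests leukocytes, was at 35.3 and 379.6 CPM (3.53, 3.34 to 3.74). CX3CL1, or fractalkine, was at 85.9 and 187 CPM (1.23, 1.05 to 1.41), and CCL5 at 42.6 and 182 CPM (2.20). The CCL5 ratio rested in part on the mixed subclusters. Of its 6-month UMIs, 234 lay in mixed subcluster 0 and 138 in unmixed subcluster 1. The regulators IRF1, NFKBIA and TNFAIP3 were at 2.41, 2.15 and 2.21. With the mixed subclusters left out, 10 of 13 members were 2-fold higher and 1 lower, with a median of 1.77, and CXCL9, CXCL10, ICAM1 and IRF1 were at 9.05, 7.29, 3.47 and 2.29.

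CXCL8, a neutrophil chemokine, depended on the mixed subclusters. It was at 3.44 over all gated cells and -1.68 (-2.38 to -1.05) without them, since 97.4% of its 834 UMIs at 6 months were in those cells. APOBEC3A, PTX3 and IL1RN also had 98.9% of their 6-month UMIs there, and GNLY 91.0%. Without those cells PTX3 was at -0.15 and IL1RN at -1.32. APOBEC3A at 2.43 and GNLY at 5.96 kept their direction on the UMIs left, but were not called. CXCL11 was 60.5% in the mixed subclusters, with 1 UMI at 3 months and 119 at 6 months.

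Some genes of antigen presentation were at least 2-fold higher at 6 months, chosen from the joint interferon and MHC list counted below and from the highest ratios. CD74 was at 59.3 CPM in the younger and 1682 CPM in the older cells (4.93, 4.79 to 5.08) and at 4.42 without the mixed subclusters, while the other barcodes had 375 and 622 CPM. It was found in 7.88% and 42.4% of gated cells. DQA, a class II chain, was at 12.7 and 319.9 CPM (4.77; 3.93 without the mixed subclusters), and CIITA, the class II activator, had 6 and 33 UMIs. In class I, TAP1, the peptide transporter, was at 189 and 499 CPM (1.5, 1.39 to 1.62), PSMB9, an immunoproteasome subunit, at 528 and 1049 CPM (1.10; 0.90 without the mixed subclusters) and B2M, the light chain, at 6739 and 11652 CPM (0.90), less than 2-fold apart. Macrophage markers, of which the gate limits C1QA, C1QB and C1QC, summed to 63.5 and 139 CPM over all gated cells and to 71.9 and 82.1 CPM without the mixed subclusters, and their part in these ratios was not tested.

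Further genes with high ratios were of several kinds. IL32 had 90 UMIs in the younger and 1776 in the older cells (6.21, 5.90 to 6.53), at 4.12 and 8.26 CPM in the other barcodes. IDO1, the enzyme that breaks down tryptophan, had 7 and 222 UMIs (6.89), and ISG20, an RNA exonuclease, had 20 and 189 (5.14). Leaving out the mixed subclusters, the list gained IRF8 (4.0), a myeloid and interferon factor, SNAI1 (3.61), a transcription factor of the mesenchymal shift, and IL18BP (3.33). JCHAIN also entered at 3.51, but 1 cell held 93.7% of its UMIs.

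Several interferon-induced antiviral genes were lower at 6 months, unlike ISG20 above. IFI6 was at 3595 CPM in the younger and 492 CPM in the older cells (-2.76, -2.85 to -2.68; -3.02 without the mixed subclusters), and the other barcodes moved the same way from 1307 to 205 CPM. IFIT1, which binds viral RNA, was at 277 and 75.9 CPM (-1.76, -2.0 to -1.54). MX1 and MX2, antiviral GTPases, were at -1.5 and -1.88, RSAD2 at -1.52, IFI44 at -1.15 and IFIT3 at -1.07. ISG15 was less than 2-fold apart at -0.84. In the joint list of interferon and MHC genes, 3 of 19 were 2-fold higher and 7 lower, with a median of -0.50, and 2 were higher and 8 lower without the mixed subclusters, where PSMB9 was no longer 2-fold apart. The 3 higher genes were TAP1, CD74 and PSMB9 of antigen presentation, and the 7 lower ones were antiviral.

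**Figure D4:**
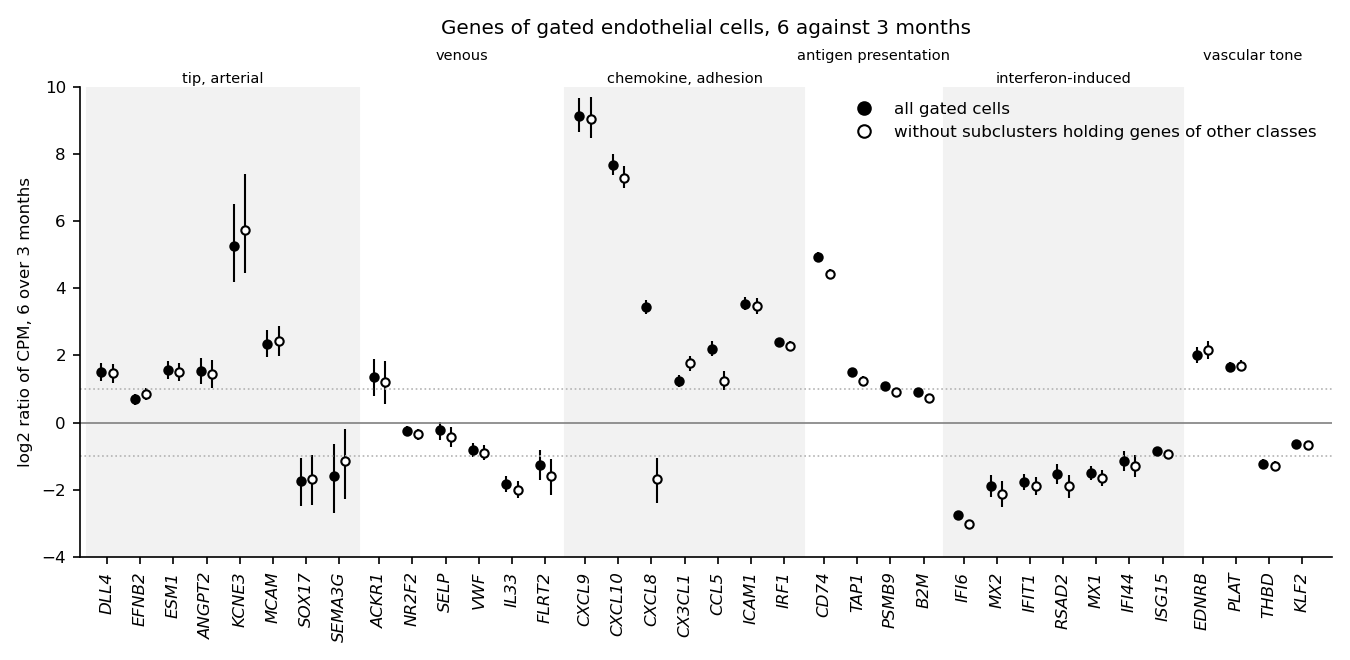
Log2 ratio of 6-month over 3-month CPM (vertical axis) of named genes, grouped by role along the horizontal axis, with 95% exact conditional binomial intervals. Filled dots are all gated cells and open dots leave out the mixed subclusters, dotted lines mark 2-fold; CXCL8 changes side, from 3.44 to -1.68, and IFI6 is lowest at -2.76 and -3.02.

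Venous genes differed in direction. ACKR1 was at 9.30 and 22.0 CPM (1.35, 0.80 to 1.89) and ICAM1 higher as above, while IL33, a nuclear alarmin of resting endothelium, was at 280.3 and 73.7 CPM (-1.82, -2.06 to -1.59). IL33 was found in 51.8% of cells at 3 months and 24.2% at 6 months. FLRT2, an adhesion protein, was at -1.26 (-1.72 to -0.82). SELP at -0.24 (-0.51 to 0.03) and NR2F2 at -0.24 (-0.38 to -0.10) were less than 2-fold apart, and so were VWF at -0.83 and TLL1 at -0.97. Of 18 measured venous genes 2 were 2-fold higher and 4 lower, with a median of -0.22, and 2 of 16 higher and 5 lower without the mixed subclusters.

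Genes of coagulation, tone and flow gave a mixed picture. THBD, the thrombin-binding anticoagulant, was at 645 and 257 CPM (-1.22, -1.35 to -1.10), and PROCR, its protein C partner, at 210.3 and 126 CPM (-0.64). PLAT, the plasminogen activator of endothelium, was at 105.9 and 312 CPM (1.67, 1.52 to 1.81) and was found in 30.3% and 60.8% of cells. EDNRB, an endothelin receptor, was at 34.2 and 128 CPM (2.01, 1.76 to 2.26), and NOS3, the endothelial nitric oxide synthase, at 29.3 and 49.4 CPM (0.86). KLF2, induced by flow, was at 1509 and 894 CPM (-0.65), and its relative KLF4 at 14.5 and 33.7 CPM (1.33). ID1 and ID2, targets of BMP signalling, were at 0.62 and 1.30, and ID1 at 1.46 without the mixed subclusters. ACVRL1, a BMP receptor of endothelium, was at 284 and 149 CPM (-0.83). Of 24 measured genes of Notch, BMP and flow response 3 were 2-fold higher and 1 lower, with a median of 0.13. Of 18 genes of haemostasis and vascular tone 4 were higher and 1 lower, with a median of 0.06, and 3 and 1 without the mixed subclusters, where PTGS2, a prostaglandin synthase, was at 0.85 in place of 3.23.

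Transport and structural genes differed by list, where over all genes with at least 50 UMIs 4.36% were higher and 4.62% lower. Of 23 measured capillary genes 2 were 2-fold higher, ESM1 and FABP4 (44.2 and 112 CPM; 1.45, 1.21 to 1.69), and 1 lower, IGFBP7, which was at -1.06 (-1.55 to -0.60) and at -0.97 without the mixed subclusters. FABP5 was at 303 and 537 CPM (0.93) and INSR, the insulin receptor, at 84.4 and 146 CPM (0.90). RGCC was at -0.39. ABCB1 was at 51.8 and 10.78 CPM (-2.16, -2.82 to -1.56) and SLC7A1, an arginine transporter, at 9.68 and 37.3 CPM (2.05), against 14.0 and 22.8 CPM in the other barcodes. Of 12 measured blood-brain barrier genes 1 was higher and 2 lower, with a median of 0.16. Of 14 genes of caveolae and lipid uptake FABP4 alone was 2-fold apart, and the caveolar coat genes CAV1 and CAVIN1 were at -0.57 and 0.19. Among 17 matrix genes and among 16 junction genes 0 were 2-fold apart in either direction, with medians of -0.01 and 0.05. The junction genes include the gate genes CDH5, ESAM and PECAM1. Left without those subclusters, the matrix list had 1 lower gene, COL18A1, and the junction list again 0. CALCRL and RAMP3, which form adrenomedullin receptors, were at -0.21 and 0.04.

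Early response and stress genes, which dissociation can raise, also differed. GADD45B was at 403 and 1084 CPM (1.53), PPP1R15A at 378 and 905 CPM (1.36), EGR3 at 17.4 and 67.8 CPM (2.07) and the heat shock gene HSPA1A at 313 and 1088 CPM (1.90). HSPA1A was at 159 and 906 CPM in the other barcodes. FOS was at 3715 and 3734 CPM and JUN at 3194 and 1899 CPM. MYC was the early response gene with the lowest ratio, at 198 and 45.8 CPM (-2.01, -2.31 to -1.72; -2.37 without the mixed subclusters). Over 24 early response genes 6 were 2-fold higher and 1 lower, with a median of 0.24, and over 12 heat shock genes 2 and 0, with a median of 0.27. Of 15 hypoxia and glycolysis genes 2 were higher, VEGFA and PFKFB3, an activator of glycolysis, and 0 lower, with a median of 0.44. PFKFB3 was at 1.28, and at 0.38 without the mixed subclusters. The part of handling in the age differences was not tested.

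Further genes were at least 2-fold lower at 6 months. CYP1A1, a monooxygenase induced through the aryl hydrocarbon receptor, had 284 UMIs in 5.20% of cells at 3 months and 0 at 6 months. Set against a floor of 3 UMIs over the gated cells it was 25.3-fold lower (-4.66), and the interval reached up to -4.35. IHH, a hedgehog ligand, had 183 and 3 UMIs (-4.03), and GRB14, an adaptor of the insulin receptor, 129 and 2 (-4.11). CH25H, which makes 25-hydroxycholesterol, was at -2.78, PTPRR, a tyrosine phosphatase, at -2.46 and DEPP1 at 233 and 52.6 CPM (-2.04). RARB, a retinoic acid receptor, was at 385 and 149 CPM (-1.26), and was the only member of 12 measured nuclear and hormone receptor genes that was 2-fold apart. Without the mixed subclusters, ABI3BP at -5.66 (2 UMIs at 6 months) and CD55, a complement inhibitor, at -4.64 joined the list, against -1.76 and -1.96 over all gated cells. POMC, HES5, UBE2C and COL1A2 were lower too, but 93.1%, 93.8%, 94.2% and 93.6% of their 3-month UMIs lay in the mixed subclusters, and 1 cell held 139 of the 140 PENK UMIs. For UBE2C, 97 of the 104 UMIs at 3 months were in subcluster 6, where PLVAP was found in 88.2% of cells. Cell cycle genes also depended on the mixed subclusters. Over all gated cells 3 of 9 were 2-fold lower, and without the mixed subclusters 4 were measured, with 1 higher and 0 lower. Whether this signal came from cycling endothelial cells was not tested. Hormone genes of other cells were at lower ratios in 5 of 7 cases, with a median of -1.72. The 5 were CGA, LHB, FSHB, TSHB and POMC. GH, which the gate limits, was at 1566 and 890.0 CPM in gated cells and at 31639.9 and 8806 CPM in the other barcodes, a ratio of -0.71 in gated cells and -1.84 without the mixed subclusters.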

How the data were processed

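Dissociated anterior pituitary cells of Hu sheep were partitioned in droplets and sequenced, per the labels' protocols. Raw UMI counts for each gene in each barcode were deposited, without normalization. The feature and barcode lists deposited beside them hold other, non-numeric entries. Cell Ranger is named as 5.0.0 per the submitters' processing notes and 5.0.1 per the file headers. The sources used here give neither genome build nor annotation. Of 23141 listed genes, 22726 identifiers matched a RefSeq gene table (ARS-UI_Ramb_v3.0), which served for names alone (447 placeholders replaced, 6554 left).

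The gate was applied to each matrix. Counts were summed over gated cells, and CPM ratios used TMM factors (edgeR 4.0.16, R 4.3.3). Other steps used Python 3.11.15, numpy 2.4.6, scipy 1.17.1, pandas 2.3.3 and scanpy 1.11.5. Clusters came per library from 2000 variable genes, 20 components, 15 neighbours and Leiden resolution 0.5, seed 1. A marker supported a class at 1.5-fold over the other gated cells and in at least 10% of the subcluster's cells, and a class needed 3 markers. Scrublet marks were recorded, not removed: 155 gated cells (7.68%) at 3 months and 21 (4.66%) at 6 months, and 5.63% and 4.30% of all kept barcodes, below the 13.1% and 10.6% expected at 0.8% per 1000 barcodes. Ratio intervals treat UMIs as independent, so variation between cells and animals is left out. The ratio and interval code was tested on simulated data.

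The members and the gene lists were chosen with earlier results of these data known. Named genes were the gate and list members, the 15 with the largest smaller fold over other cells, up to 12 higher and 12 lower between ages ordered by the interval bound nearer to 0, and the first 6 by fold per subcluster. Others, such as the subclusters' further genes, were chosen after their values were seen, as was the choice of mixed subclusters. Alternatives are in the closing section.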

Additional observations from a re-analysis of the deposited data

How the results depend on the processing

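With 1 library per age, no library could be left out. No paired analysis was possible because each age has 1 library. The 3-month share of 12.3% became 11.3% with a stricter barcode filter, 11.6% with gate genes counted after thinning to 1000 UMIs, 10.6% without cells carrying genes of other classes and 10.5% without the mixed subclusters, which were chosen after seeing the data. The 6-month share of 3.40% became 2.94% and 3.01% under the last 2 settings. At resolution 1.0 the 3-month cells gave 12 subclusters in place of 7. The 310 genes higher at 6 months became 200 without the mixed subclusters and 665 with a count minimum of 20. The 246 lower genes became 438 on the mean of per-cell CPM, where 38.7% of genes apart were higher, and 654 with that minimum, which admits genes of fewer UMIs. On totals without hormone genes 257 were higher and 331 lower. The other 31 values of such results moved little. Of 478 values of named genes under these settings, 400 kept their value, 70 moved and 8 reversed. Without the mixed subclusters PTX3 was at -0.15, IL1RN at -1.32, HES5 at 0.63, UBE2C at 0.26 and PENK at 1.85. Without cells carrying genes of other classes HES5 was at 0.70 and PENK at 1.92, and without Scrublet marks PENK was at 3.40. HES5 had 0 UMIs at 6 months and was put at the floor of 3 UMIs, so its positive values are no measured rise. PENK had 4 UMIs at 6 months, and 1 cell held nearly all of its 140 at 3 months. Its positive values thus rest on a few UMIs and show no rise either. Depth limits rare genes: a gene at 0 UMIs in 451 cells could still be found in up to 0.665% of them.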

Other observations

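A few genes that lead a subcluster were looked at across subclusters and ages. They were chosen after their values were seen, and the clustering used them, so their levels are a description. POSTN, a matrix protein, was at 380 CPM in 3-month subcluster 1 and at 15.4 to 79.9 CPM in the other unmixed 3-month groups, and at 6 months it was at 237 to 240.3 CPM in subclusters 1 and 3 and at 65.1 to 89.3 CPM in subclusters 2 and 4. Its age ratio over all gated cells was 0.13 (-0.07 to 0.31). SPP1, or osteopontin, a secreted phosphoprotein, was at 316 CPM in 6-month subcluster 2 against 78.4 CPM in the library's other gated cells, and its age ratio was 1.34 (1.11 to 1.56), and 1.25 without the mixed subclusters. TAGLN was at 282 CPM in 6-month subcluster 3 against 57.5 CPM, and 1 cell held 25.3% of the 233 TAGLN UMIs of all gated cells at 6 months.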
